A study of Mus musculus with 32 samples.

Results

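The 10 genes described here are known as markers of blood monocytes and neutrophils, and were followed in macrophages (MΦs) sorted from mouse islets, with islet β cells and endothelial cells (ECs) beside them. The members are all rows of the expression table whose symbol is *S100a8*, *S100a9*, *Lcn2*, *Ly6c2*, *Plac8*, *F13a1*, *Mpo*, *Elane*, *Chi3l3* or *Vcan*, which is 10 of 22850 genes. Each symbol matched 1 row. The mice were adults that carried MIP-GFP, RIP-rtTA and TetO-VEGF-A, and the No Dox controls carried all of these transgenes too. A rat insulin promoter drives the rtTA activator in β cells, so doxycycline (Dox) turns on human VEGF-A there, and a mouse insulin promoter drives GFP in the same cells. No Dox mice received no Dox, 1wk Dox mice had it for 1 week, and 1wk WD mice were studied 1 week after it was withdrawn. The sort took CD31+ cells as ECs, CD11b+ cells as MΦs and, among cells negative for both, GFP+ cells as β cells, from islets that were pooled from several mice per sample. There were 4 No Dox, 2 1wk Dox and 4 1wk WD samples of MΦs. In the same order the numbers were 4, 1 and 5 for ECs and 4, 5 and 3 for β cells.

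Monocytes leave the bone marrow, circulate, and become macrophages after they enter a tissue, and along the way they lose some transcripts and gain others. CD11b, the protein used for the MΦ sort, is carried by monocytes, macrophages and neutrophils alike. Neutrophils make most of their granule proteins in the marrow and keep few of those transcripts once mature, whereas *S100a8* and *S100a9* stay abundant in mature neutrophils and in classical monocytes.

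Values are the authors' normalised scores, given as whole numbers of 1 or more. Fold changes are fitted on log2(score + 1), and a gene passed the test at a fold change of 2 or more with an adjusted p under 0.05 over all genes tested (limma, Benjamini-Hochberg). In bulk samples, fewer cells of a type and less RNA per cell cannot be told apart. The sum of scores ranged from 32756575 to 53441769 over the 10 MΦ samples. The MΦ samples carried the tissue macrophage transcripts *Csf1r*, with scores of 38674 to 88375, and *Emr1* (F4/80), with scores of 26208 to 44210. Transcripts of pancreatic acinar cells differed widely among these libraries: 7 acinar genes made up 20.8% of the summed score in No Dox replicate 2 and 5.05% in No Dox replicate 4, against 0.284% and 0.0665% in the other No Dox samples, 0.00312% to 0.0101% with 1wk Dox and 0.00465% to 0.587% at 1wk WD. No Dox MΦ replicate 3 had the lowest *C1qa* score of these libraries, 894 against up to 9863. In β cells the acinar share was 24.0% and 20.5% in No Dox replicates 3 and 4 and at most 2.02% in the other 10 samples, and in ECs it was 4.74% in No Dox replicate 2 and at most 0.294% in the others. Their part in the results was not tested, and values without MΦ replicates 2 and 4, or without β replicates 3 and 4, are given where they change a call.

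None of the 10 genes passed the test between time points in MΦs. The count was 0 of 10 at 1wk Dox against No Dox, where 2.26% of all genes passed, 0 of 10 at 1wk WD against No Dox, where 0.626% passed, and 0 of 10 at 1wk WD against 1wk Dox, where 0.0866% passed. By the unadjusted p (under 0.05, with the same limit on the fold), 1 gene passed in each of these comparisons, against 6.55%, 4.97% and 1.82% of all genes. Those genes were *Elane* at 1wk Dox and *Chi3l3* in both comparisons with 1wk WD. The median log2 fold change of the 10 genes against No Dox was 0.14 with Dox and -0.05 after withdrawal, beside 0.03 and 0.003 over all genes tested.

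**Figure D1:**
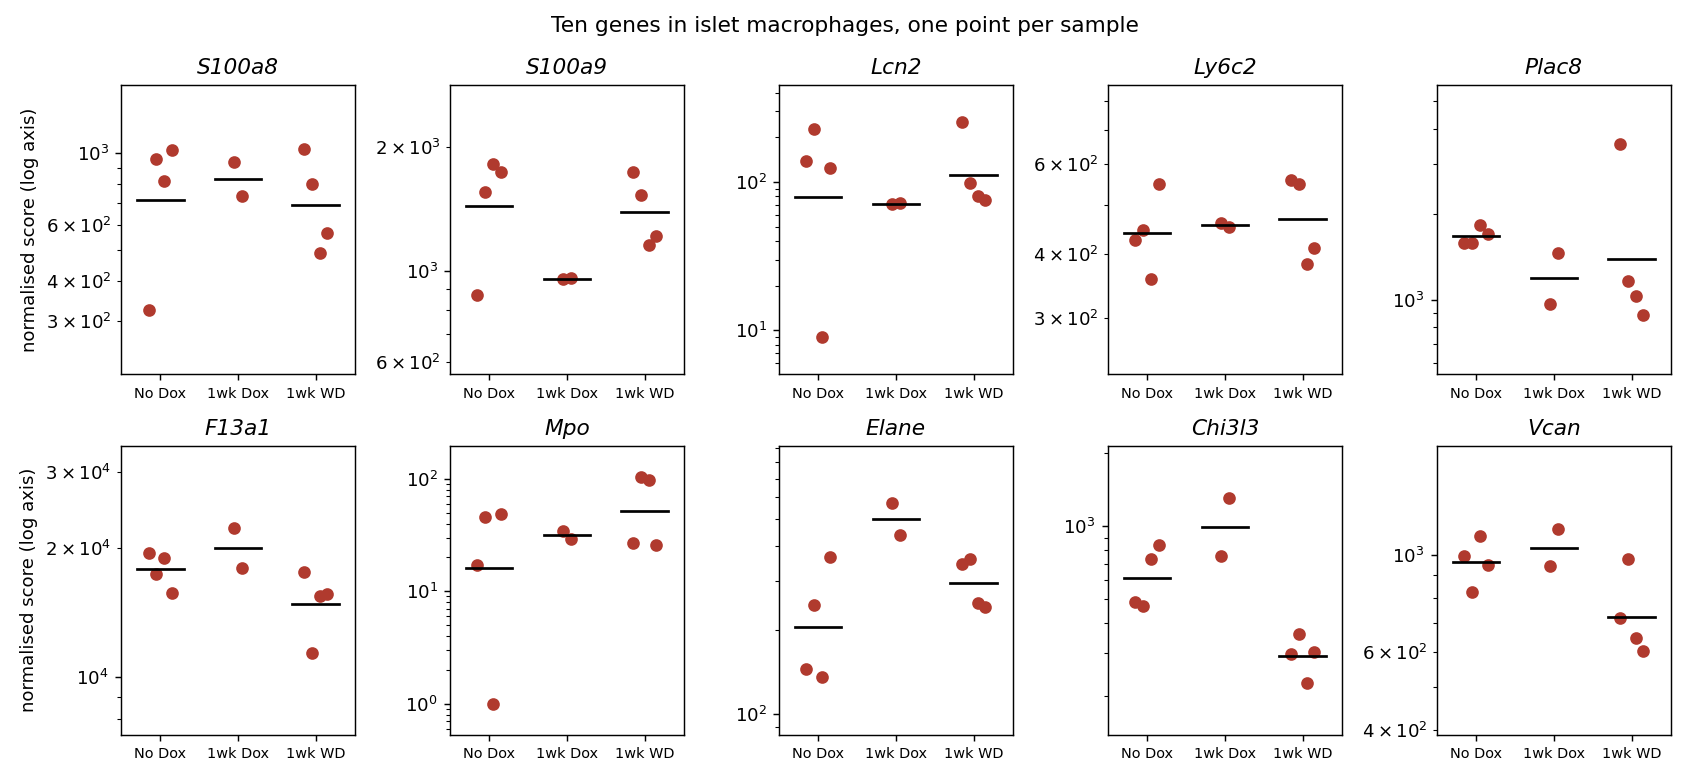
Normalised score (log axis) of each gene in every MΦ sample from No Dox (n = 4), from 1wk Dox (n = 2) and from 1wk WD (n = 4) mice. Points are samples and bars are means taken on the log scale. *Chi3l3* at 1wk WD lies at 226 to 359, below every other MΦ sample, and *Elane* is highest at 1wk Dox, at 438 and 570.

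*S100a8* and *S100a9* encode the subunits of calprotectin, a calcium-binding complex released by activated myeloid cells, and lie next to each other on chromosome 3 (mm9, chr3:90472993-90473956 on the plus strand and chr3:90496554-90499643 on the minus strand). *S100a9* scored 872, 1549, 1815 and 1740 at No Dox, 953 and 957 with 1wk Dox, and 1739, 1523, 1151 and 1212 at 1wk WD. Both 1wk Dox samples lay below every 1wk WD sample (13.4% of all genes had 1wk WD above 1wk Dox in this way) and inside the No Dox range. Against No Dox the log2 fold change was -0.59 ± 0.28 (SE) with Dox (limma adjusted p = 0.243) and -0.05 ± 0.23 after withdrawal (limma adjusted p = 0.930). *S100a8* scored 326, 960, 817 and 1022 at No Dox, 942 and 738 with 1wk Dox, and 1028, 802, 489 and 563 at 1wk WD. All of its groups overlapped, with log2 fold changes of 0.22 ± 0.42 and -0.05 ± 0.34 (SE). Over the 10 MΦ samples the log2 scores of *S100a8* and *S100a9* had a Pearson r of 0.639, which describes samples that share cell type and processing.

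*Lcn2* encodes lipocalin 2, an iron-siderophore binding protein of neutrophil granules that many tissues also make in inflammation. It scored 139, 227, 9 and 125 at No Dox, 71 and 72 with 1wk Dox, and 254, 98, 81 and 76 at 1wk WD. The No Dox spread held nearly all other values, with replicate 3 at 9. Its log2 fold changes against No Dox were -0.14 ± 1.00 and 0.50 ± 0.82 (SE) at 1wk Dox and 1wk WD. Without No Dox replicate 3 they were -1.13 and -0.50, so the sign at 1wk WD rests on that sample.

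*Mpo*, myeloperoxidase, is made by promyelocytes and makes hypochlorous acid. It scored 17, 46, 1 and 49 at No Dox, 34 and 29 with 1wk Dox, and 27, 104, 97 and 26 at 1wk WD. The groups overlapped, and the log2 fold changes of 0.93 ± 1.18 and 1.63 ± 0.97 (SE) carried wide errors. Without No Dox replicate 3, at 1, they were -0.10 and 0.60, so the sign at 1wk Dox and a size past 2-fold at 1wk WD rest on that sample. Leaving out the acinar-rich No Dox libraries raised the 1wk WD value, to 2.12 for replicate 2, to 2.15 for replicate 4 and to 3.14 for the pair (limma adjusted p = 0.0823). *Elane*, neutrophil elastase, a serine protease of the same granules, lies at mm9 chr10:79349057-79350961 on the plus strand. It scored 145, 246, 136 and 366 at No Dox, 570 and 438 with 1wk Dox, and 346, 359, 250 and 243 at 1wk WD. Both 1wk Dox samples lay above all No Dox and 1wk WD samples, as 16.2% of all genes did against No Dox. Its 1wk Dox fold change on the log2 scale was 1.28 ± 0.40 (SE), with a limma adjusted p of 0.0885. It passed the test without No Dox replicate 4, at 1.56 with a limma adjusted p of 0.0355, and without the acinar-rich replicates 2 and 4 together, at 1.82 with a limma adjusted p of 0.00895.

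*Elane* scored in the same range in the other cell types. ECs scored 162, 200, 208 and 161 at No Dox, 188 in the 1wk Dox sample, and 218, 166, 149, 119 and 251 at 1wk WD. β cells scored 206, 97, 193 and 175 at No Dox, from 84 to 255 at 1wk Dox with a median of 205, and 64, 101 and 354 at 1wk WD. These ranges overlapped with No Dox MΦs, and the log2 fold change of MΦs at No Dox was 0.18 ± 0.38 (SE) against ECs and 0.35 ± 0.38 (SE) against β cells. *Prtn3*, the gene of proteinase 3, another granule protease, lies 3138 bases away. It scored 2 to 50 in MΦs, 10 to 69 in ECs and 1 to 203 in β cells. *Ctsg*, cathepsin G of the same granules, was at 1 in all 10 MΦ samples.

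*Chi3l3* (Ym1), a chitinase-like secreted protein of neutrophils, monocytes and alternatively activated macrophages, had the lowest scores after withdrawal. It scored 488, 469, 732 and 835 at No Dox, 752 and 1315 with 1wk Dox, and 298, 359, 226 and 304 at 1wk WD. Every 1wk WD sample lay below every sample of the other time points, as 4.27% of all genes did against No Dox and 16.6% did against 1wk Dox. Its 1wk WD fold change on the log2 scale was -1.06 ± 0.26 (SE) against No Dox (limma adjusted p = 0.0659) and -1.76 ± 0.32 (SE) against 1wk Dox (limma adjusted p = 0.0769). At 1wk Dox against No Dox it was 0.70 ± 0.32 (limma adjusted p = 0.229), with overlapping samples. The difference at 1wk WD against No Dox passed the test when genes below a mean score of 200 were left out, at an adjusted p of 0.0498, and over all its alternatives the limma adjusted p ran from 0.0498 to 0.197. Against 1wk Dox it passed when only those groups were fitted, with a limma adjusted p of 0.0249 in a range of 0.0249 to 1. *Chi3l3* spans mm9 chr3:105950472-106022425 on the minus strand, a stretch that contains *Chi3l4* in the annotation. Of the 50-base windows in *Chi3l3* transcripts, 17.9% occur in *Chi3l4* too, and *Chi3l4* itself scored 1 to 14 in MΦs.

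Among the monocyte genes, *F13a1* had large scores throughout. It encodes the A subunit of coagulation factor XIII, a transglutaminase that monocytes and macrophages carry in the cytoplasm. It scored 19472, 17383, 18904 and 15724 at No Dox, 22251 and 17995 with 1wk Dox, and 17586, 11410, 15481 and 15627 at 1wk WD. The 1wk WD samples lay below both 1wk Dox samples, as 16.6% of all genes did, and overlapped with No Dox. The log2 fold change of 1wk WD was -0.43 ± 0.18 (SE) against 1wk Dox (limma adjusted p = 0.463) and -0.26 ± 0.15 (SE) against No Dox (limma adjusted p = 0.383). At 1wk Dox against No Dox it was 0.17 ± 0.18 (SE).

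*Plac8*, a small cysteine-rich protein of myeloid cells, scored 1582, 1580, 1828 and 1710 at No Dox, 970 and 1463 with 1wk Dox, and 3545, 1163, 1035 and 882 at 1wk WD. Both 1wk Dox samples lay below the No Dox samples, as 14.7% of all genes did. At 1wk WD, replicate 1 lay above all other MΦ samples, and the remaining replicates lay below all No Dox samples. The log2 fold changes against No Dox were -0.49 ± 0.42 and -0.26 ± 0.35 (SE). Without 1wk WD replicate 1, at 3545, the value at 1wk WD was -0.71 (limma adjusted p = 0.0714), and without 1wk WD replicate 4 it was -0.044. *Vcan*, the matrix proteoglycan versican that monocytes and stromal cells make, scored 994, 822, 1107 and 951 at No Dox, 943 and 1146 with 1wk Dox, and 719, 977, 647 and 603 at 1wk WD. Its 1wk WD fold change on the log2 scale was -0.41 ± 0.18 (SE) against No Dox (limma adjusted p = 0.273) and -0.52 ± 0.22 (SE) against 1wk Dox (limma adjusted p = 0.472), and 1wk WD replicate 2 lay inside the range of both. *Chi3l3* and *Vcan* had the highest correlation of any pair of the 10 genes over the MΦ samples, with a Pearson r of 0.828 over 10 samples.

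**Figure D2:**
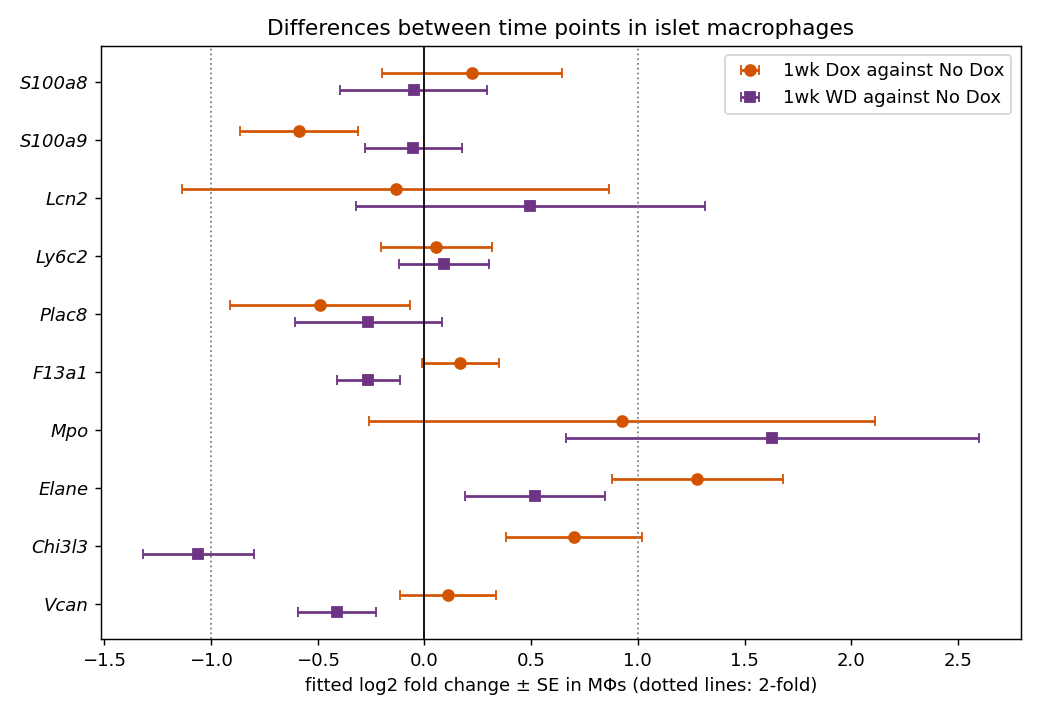
Fitted log2 fold change (x axis) of each gene (y axis) in MΦs at 1wk Dox (circles) and 1wk WD (squares) against No Dox, with bars of 1 SE and dotted lines at a fold change of 2. Mean estimates past the lines are *Elane* at 1wk Dox (1.28), and *Chi3l3* (-1.06) and *Mpo* (1.63) at 1wk WD, and none of them passed the test.

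*Ly6c2* encodes the Ly6C surface protein, whose high level marks classical monocytes, and it has a neighbour that is almost the same in sequence. *Ly6c2* lies at mm9 chr15:74938590-74942114 and *Ly6c1* at chr15:74875447-74879260, both on the minus strand. Their coding sequences have 396 bases each and differ at 9, an identity of 97.7%. The first 150 coding bases are shown because they hold 6 of the differences, which are in capitals.
Ly6c2: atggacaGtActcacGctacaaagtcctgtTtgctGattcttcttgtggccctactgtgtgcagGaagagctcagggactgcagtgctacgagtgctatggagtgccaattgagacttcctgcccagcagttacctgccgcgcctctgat
Ly6c1: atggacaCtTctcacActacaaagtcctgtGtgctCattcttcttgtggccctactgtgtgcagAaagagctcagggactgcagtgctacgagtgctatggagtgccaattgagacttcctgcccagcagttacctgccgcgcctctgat
Of the 50-base windows of *Ly6c2*, 33.7% occur in *Ly6c1* as well, so a read of that length from such a window fits both genes.

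In MΦs *Ly6c2* scored 426, 447, 357 and 548 at No Dox, 461 and 452 with 1wk Dox, and 560, 548, 382 and 411 at 1wk WD. The groups overlapped, with log2 fold changes of 0.06 ± 0.26 and 0.09 ± 0.21 (SE) against No Dox. *Ly6c1* scored 14 to 56 in the same samples. In ECs *Ly6c2* scored 458, 347, 551 and 513 at No Dox, 244 in the 1wk Dox sample, and 434, 489, 195, 174 and 628 at 1wk WD, which overlaps with MΦs. At No Dox the log2 fold change of MΦs was -0.07 ± 0.55 (SE). *Ly6c1*, an endothelial gene as well, scored 9209 to 21924 there. The *Ly6c2* score was 1.14% to 3.29% of the *Ly6c1* score over the 10 EC samples and 682% to 2610% of it over the 10 MΦ samples. In β cells *Ly6c2* scored 1 to 57, and the 4 samples at 10 or more had *Ly6c1* scores of 203 to 946. However, 1wk Dox replicate 2 scored 1 with *Ly6c1* at 336. The number of *Ly6c2* reads in ECs that came from *Ly6c1* was not tested.

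**Figure D3:**
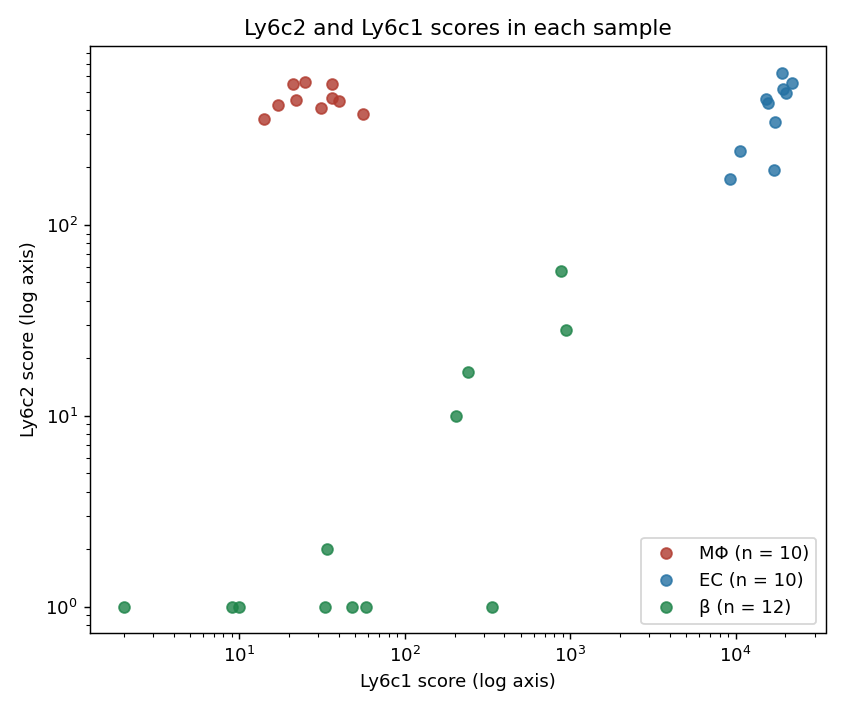
*Ly6c2* score (y, log axis) against *Ly6c1* score (x, log axis), 1 point per sample, for MΦs (n = 10), ECs (n = 10) and β cells (n = 12). MΦs lie at 14 to 56 of *Ly6c1* and ECs at 9209 to 21924, while their *Ly6c2* scores overlap.

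Across cell types at No Dox, 6 of the 10 genes passed as higher in MΦs than in ECs, where 17.6% of all genes did, and 8 of 10 passed as higher in MΦs than in β cells, where 19.7% did. These counts are a description, since 6 of the 10 had a mean under the minimum of 20 in No Dox ECs and 5 had one in No Dox β cells, and 4 of them (*S100a9*, *Lcn2*, *Mpo* and *Chi3l3*) were tested only because of their MΦ scores. *S100a9* and *Chi3l3* were at 1 in all 10 EC and all 12 β samples, so no fold is given. *Mpo* was at 1 in all 10 EC samples and at 1 to 7 in β cells. It passed against both, although No Dox MΦ replicate 3 was at 1 as well. It no longer passed against ECs without No Dox MΦ replicate 2 (limma adjusted p = 0.0515) or 4 (0.0551), and against β cells the call was lost without any 1 of β replicates 1, 2 and 3 or MΦ replicates 1, 2 and 4 (limma adjusted p of 0.0640 to 0.0955). Without both acinar-rich MΦ replicates 2 and 4, *Mpo* fell short of the minimum mean and was not tested. *S100a8* scored 1 to 5 in ECs. In β cells it was at 1 or 2 in all samples but No Dox replicate 4, at 162, and 1wk WD replicate 2, at 70.

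*F13a1* scored 41, 32, 23 and 73 in No Dox ECs and 51, 29, 103 and 169 in No Dox β cells. Every No Dox MΦ sample lay above them, as 25.2% of all genes did against ECs and 22.3% against β cells, and the log2 fold change was 8.81 ± 0.50 (SE) against ECs and 7.94 ± 0.50 (SE) against β cells. *Plac8* scored 22, 6, 14 and 13 in No Dox ECs, a log2 fold change of 6.95 ± 1.22 (SE) for MΦs. In No Dox β cells it scored 6, 25, 459 and 751, still below all MΦ samples, with a log2 fold change of 4.23 ± 1.22 (SE). That difference no longer passed without the acinar-rich No Dox MΦ replicates 2 and 4, with nearly the same estimate of 4.26 and a limma adjusted p of 0.0594 on fewer samples. Without β replicates 3 and 4 it was 6.95 (limma adjusted p = 3.18e-06). *Lcn2* against β cells also lost its call without those MΦ replicates, at 2.98 against 4.07 with all samples (limma adjusted p = 0.153).

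As *Lcn2* was tested across cell types only because of its MΦ scores, its calls here are a description. *Lcn2* was low in ECs, at 8, 20, 2 and 11 at No Dox, and the MΦ difference of 3.13 ± 1.28 (SE) did not pass (limma adjusted p = 0.0688). It passed without No Dox MΦ replicate 3, at 4.13 with a limma adjusted p of 0.0183, and with the replicate block (0.0389), a pseudocount of 20 (0.0275), quantile scaling (0.0462) or only the groups compared (0.0239). Against β cells, at 1, 1, 1 and 63, it passed. That call was lost without No Dox MΦ replicate 2 (limma adjusted p = 0.0506) and without β replicate 1 (limma adjusted p = 0.0502). *Ly6c2* and *Elane* did not pass against ECs, and *Elane* and *Vcan* did not pass against β cells.

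**Figure D4:**
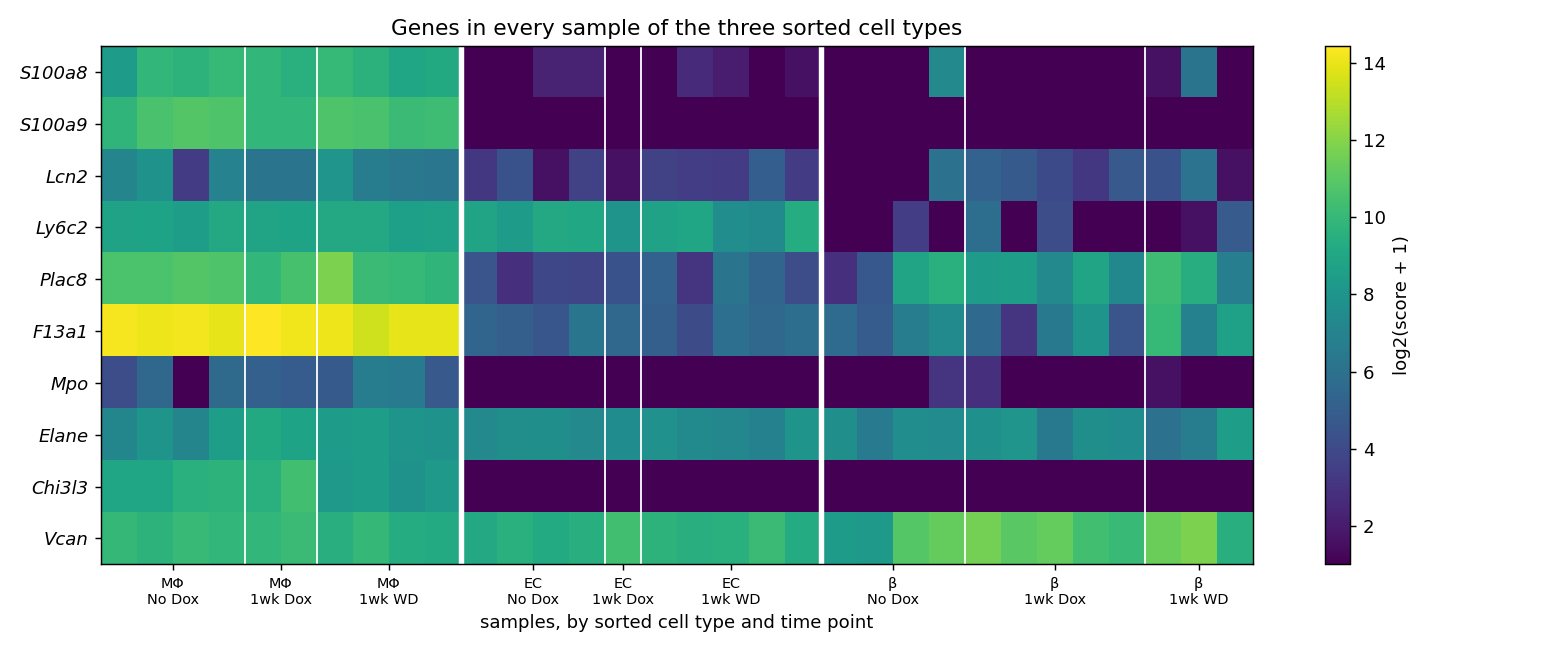
log2(score + 1) by colour for each gene (rows) in all 32 samples (columns), grouped by sorted cell type and time point. *S100a9* and *Chi3l3* are at the lowest score in all ECs and β cells, the scores of *Elane* overlap among the 3 cell types, and *Vcan* is high in most β samples.

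*Vcan* did not pass in MΦs against either other cell type. ECs scored 552, 734, 589 and 705 at No Dox, all below the No Dox MΦs, and 819, 676, 738, 1154 and 611 at 1wk WD. The log2 fold change of MΦs was 0.59 ± 0.59 (SE) against ECs and 0.21 ± 0.59 (SE) against β cells at No Dox. β cells scored 338, 311, 1881 and 2450 at No Dox, 3199, 2053, 2504, 1330 and 1080 with 1wk Dox, and 2716, 3590 and 684 at 1wk WD. The lower No Dox samples, replicates 1 and 2, had summed scores of 5 stromal markers (*Pdgfrb*, *Col1a1*, *Dcn* and others) of 215 and 85, whereas replicates 3 and 4 had 53413 and 155714. At 1wk WD replicate 3, with *Vcan* at 684, the stromal sum was 11263, against 191228 and 162038 in the others. Replicates 3 and 4 were also the acinar-rich No Dox β samples. Without them *Vcan* passed as higher in MΦs than in β cells, with a log2 fold change of 1.57 (limma adjusted p = 4.73e-05). The part of acinar and stromal transcripts in the *Vcan* values was not tested.

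In ECs and β cells over time, no gene of the 10 passed with all samples in the fit. In ECs at 1wk WD against No Dox it was 0 of 5 tested, beside 1.76% of all genes. *Plac8* had a log2 fold change of 1.03 ± 0.66 (SE), *Ly6c2* of -0.44 ± 0.35 (SE) and *Vcan* of 0.28 ± 0.18 (SE), with overlapping samples. In the single 1wk Dox EC sample, *Vcan* at 1333 lay above all No Dox ECs, 1.06 above their mean on the log2 scale, and it was the only 1 of the 5 past a fold change of 2, as 10.7% of all genes were. There is no test with 1 sample. In β cells the counts were 0 of 6 tested for 1wk Dox against No Dox, for 1wk WD against No Dox and for 1wk WD against 1wk Dox, where 0.0122%, 0% and 0% of all genes passed. Without the acinar-rich No Dox β replicates 3 and 4, which leaves 2 No Dox samples, *Plac8* and *Vcan* passed as higher at both later times. That was 2 of the 6 at 1wk Dox, where 7.36% of all genes passed, and 2 of the 6 at 1wk WD, where 8.74% did. *Plac8* in β cells scored 6, 25, 459 and 751 at No Dox, 347, 356, 160, 465 and 154 with 1wk Dox, and 1234, 668 and 108 at 1wk WD. No Dox replicates 1 and 2 lay below all later samples, and replicates 3 and 4 lay among them. The *Plac8* log2 fold changes against No Dox were 1.60 and 2.33 with all samples (limma adjusted p = 0.828 and 0.642) and 4.32 and 5.05 without those replicates (limma adjusted p = 0.0145 and 0.00951). Summed scores of some markers of other cells were lowest in No Dox replicates 1 and 2 as well. Others were not: that of 12 tissue macrophage markers was 4729 in replicate 1 and 3007 in replicate 3. The summed score of 7 dendritic cell markers was 482, 310, 4437 and 5768 at No Dox, from 2300 to 4730 with 1wk Dox, and 13193, 10165 and 3102 at 1wk WD. The highest median among the 7 in β samples was 1540 for *Zbtb46*, which scored higher in ECs (8644 to 13784) than in MΦs (2580 to 5410). The summed score of the 12 other classical monocyte genes was 587, 262, 9086 and 18718 at No Dox, from 10855 to 37760 with 1wk Dox, and 28762, 22779 and 4885 at 1wk WD. *Fn1* and *Thbs1* had the highest medians in it, 10405.5 and 5850, against 155 for *Ccr2* and 31.5 for *Ms4a4c*. The part of these markers was not tested. For *Vcan* both log2 fold changes were 1.17 with all samples (limma adjusted p = 0.769 and 0.662) and 2.53 without those replicates (limma adjusted p = 0.0242 and 0.0328). *F13a1* in β cells scored 51, 29, 103 and 169 at No Dox, 47, 7, 86, 248 and 22 with 1wk Dox, and 1043, 121 and 410 at 1wk WD. The 1wk WD samples had a log2 fold change of 3.04 ± 1.07 (SE) against 1wk Dox (limma adjusted p = 0.675, though it was the 1 gene of the 6 to pass by the unadjusted p, beside 2.88% of all genes) and of 2.37 ± 1.12 (SE) against No Dox (limma adjusted p = 0.610). The summed score of 12 tissue macrophage markers in β samples was 7276 to 7620 at 1wk WD, against 3395 to 5599 at 1wk Dox and 2547 to 7030 at No Dox, and its part was not tested. The β gate left out CD11b+ cells, and the purity of the sorted samples was not tested. The difference between the 1wk WD responses of MΦs and ECs did not pass for any of the 10 genes, where 1.4% of all genes did. *S100a9*, *Mpo* and *Chi3l3* were at 1 in all ECs, so for them this difference is the MΦ change again and compares no pair of responses. That holds for *Chi3l3*, the 1 gene of the 10 past the unadjusted limit, beside 9.04% of all genes. The estimate for *Vcan* was -0.70 ± 0.27 (limma adjusted p = 0.160).

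The rest of the neutrophil programme was partly present in MΦs. Of 20 other neutrophil genes, *Csf3r*, the receptor of granulocyte colony-stimulating factor, scored 4421 to 9147 in MΦs and *Il1r2*, the interleukin-1 decoy receptor, 6789 to 16003. *Cxcr2*, a chemokine receptor of neutrophils, scored 489 to 1774, *Trem1* 401 to 1211, *Mmp9* 90 to 337 and *Retnlg* 29 to 364. *Ly6g*, the surface protein that defines mouse neutrophils, scored 1 to 10 and was at 1 in 5 of 10 samples. *Fcnb* scored 1 to 4, *Cebpe* 1 to 7 and *Camp* 1 to 60. The summed score of these 20 genes was 20763 to 27819 at No Dox, 14575 to 16015 with 1wk Dox and 21047 to 31729 at 1wk WD, so both 1wk Dox samples were lowest. Of single genes, 14.7% had both 1wk Dox samples below all No Dox samples. *Il1r2* and *Csf3r* had the largest scores in this sum, so it says little about the genes near the lowest score. None of the 14 tested passed at 1wk Dox or at 1wk WD, beside 1 passing downward at 1wk Dox under either other scaling and without No Dox replicate 3 or 4. *Il1r2* at 1wk Dox, with a log2 fold change of -0.76 ± 0.19 (SE), had a limma adjusted p of 0.0442 but less than a 2-fold change. *Hdc*, histidine decarboxylase, had a log2 fold change of -0.99995 ± 0.26 (SE) and a limma adjusted p of 0.0454, just short of the 2-fold limit. The median log2 fold change of the tested genes was -0.58 with 1wk Dox and 0.12 at 1wk WD.

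Of 12 other classical monocyte genes, 0 passed at 1wk Dox or 1wk WD against No Dox, with medians of 0.03 and -0.08. At 1wk WD against 1wk Dox 1 of them passed, *Ccr1*, a chemokine receptor, at -1.20 ± 0.17 (SE) with a limma adjusted p of 0.0316. That call held under 8 of 15 alternatives, and was lost without 1wk Dox replicate 4 (limma adjusted p = 0.832) or 5 (0.269), with estimates of -1.16 and -1.24 on fewer samples. *Ccr2*, the receptor that brings monocytes out of the marrow, scored 11621 to 24024 over the MΦ samples. Of 10 patrolling monocyte genes, 1 passed at 1wk Dox, *Spn* (CD43), at -1.21 ± 0.23 (SE) with a limma adjusted p of 0.0169, and 0 passed at 1wk WD. Tissue macrophage markers passed for 3 of 12 at 1wk Dox, all upward: *C1qb* rose by 1.42 ± 0.24 and *C1qc* by 1.79 ± 0.24 on the log2 scale, both complement subunits, and *Fcgr1* by 1.16 ± 0.16, with limma adjusted p of 0.0101, 0.00407 and 0.00407. None of the 12 passed at 1wk WD. The medians were 0.66 and 0.52. The summed score of 7 endothelial markers was also highest in the 1wk Dox MΦ samples, at 2832 and 2504 against 1260 to 2408 in the others, with 0 of the 7 passing at 1wk Dox and a median log2 fold change of 1.59, and its part was not tested. Without 1wk Dox replicate 4, which leaves a lone sample assumed to vary like the other groups, the estimates at 1wk Dox were 1.25 for *C1qb*, 1.63 for *C1qc*, 1.00 for *Fcgr1* and -0.93 for *Spn*, and 0 of them passed, with limma adjusted p of 0.329, 0.244, 0.244 and 0.435. Without 1wk Dox replicate 5, *C1qb* and *Spn* did not pass (limma adjusted p = 0.0539 for both). Of 15 alternatives, the 1wk Dox call held in 13 for *C1qc* and *Fcgr1* and in 11 for *C1qb* and *Spn*.

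Of 8 tested attractants and growth factors of monocytes and neutrophils, 4 passed as higher in MΦs at 1wk Dox. Of all genes 2.26% passed there, and 0.626% at 1wk WD against No Dox. The list was chosen with earlier results of these data known, so the counts are a description. *Ccl2* rose by 1.21 ± 0.19 (SE), *Ccl7* by 2.25 ± 0.29, *Cxcl1* by 2.36 ± 0.40 and *Csf1* by 1.11 ± 0.26 on the log2 scale, with limma adjusted p of 0.00867, 0.00323, 0.0101 and 0.0321. The first 3 are chemokines, of monocytes and, for *Cxcl1*, of neutrophils, and *Csf1* is the macrophage growth factor. At 1wk WD, 2 of the 8 passed, *Ccl7* at 1.66 ± 0.24 and *Ccl12*, another monocyte chemokine, at 1.20 ± 0.24, with limma adjusted p of 0.00916 and 0.0334. The *Ccl12* call held under 6 of 15 alternatives and was lost without any 1 of No Dox replicates 1, 2 and 4, 1wk WD replicates 2, 3 and 4 and 1wk Dox replicate 4 (limma adjusted p of 0.0515 to 0.122), and without the acinar-rich No Dox replicates 2 and 4 together (1.17, limma adjusted p = 0.0550). Over all 15 its estimate ran from 1.05 to 1.37. The *Ccl7* call held under 14 of 15. Among 14 tested partners of the 10 genes, such as the calprotectin receptor *Tlr4*, 1 passed at 1wk Dox, *Tgm2*, another transglutaminase, at 1.26 ± 0.25 (SE) with a limma adjusted p of 0.0188, and 0 passed at 1wk WD. Without 1wk Dox replicate 4, 0 of these calls at 1wk Dox held, with estimates of 0.88 for *Ccl2*, 1.64 for *Ccl7*, 1.80 for *Cxcl1*, 0.88 for *Csf1* and 1.31 for *Tgm2*, and without 1wk Dox replicate 5 *Csf1* (limma adjusted p = 0.101) and *Tgm2* (limma adjusted p = 0.139) did not pass. Of the same 15 alternatives, the 1wk Dox call held in 14 for *Ccl7*, 12 for *Ccl2* and *Cxcl1*, 11 for *Tgm2* and 7 for *Csf1*. *Ctsc*, which activates the granule proteases, had 0.58 ± 0.16 (SE) at 1wk Dox with a limma adjusted p of 0.0620.

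**Figure D5:**
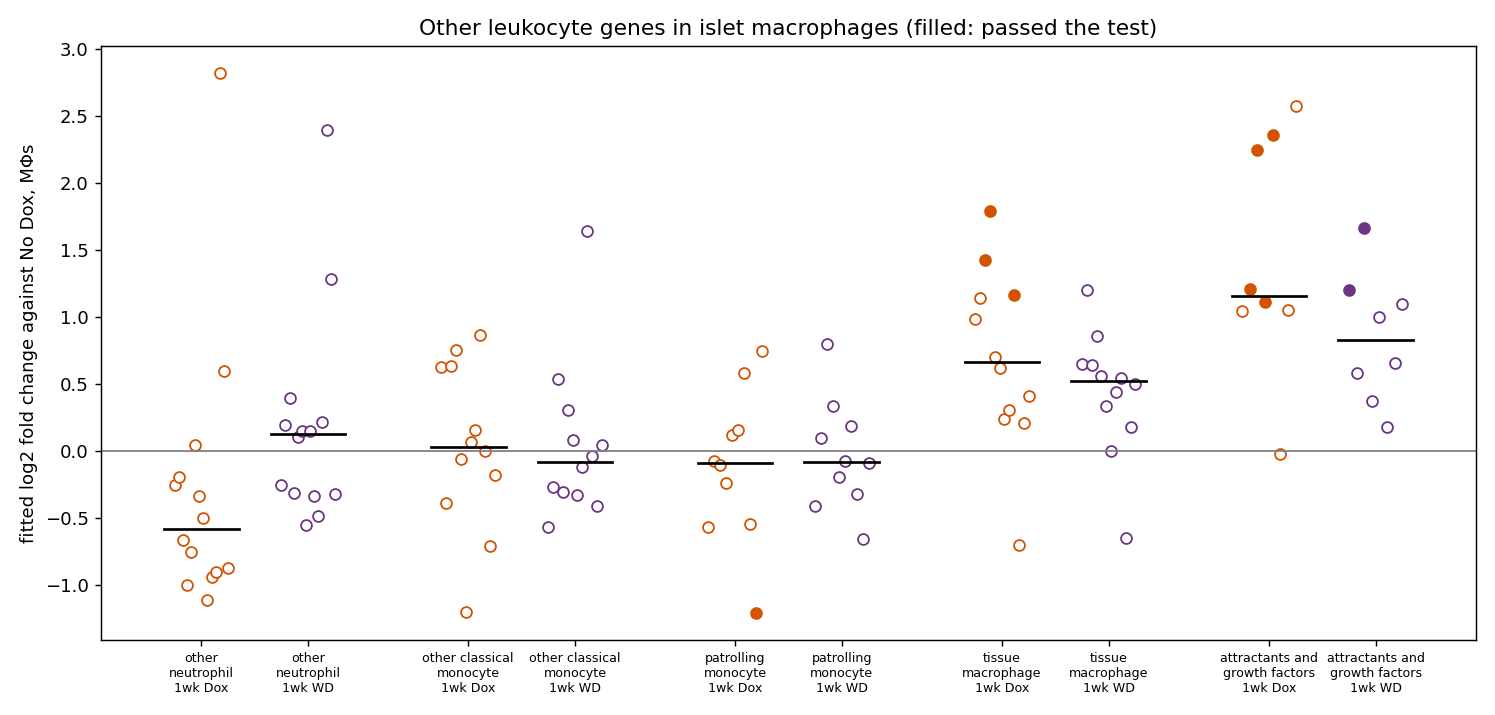
Fitted log2 fold change (y axis) in MΦs at 1wk Dox (orange) and 1wk WD (purple) against No Dox for other neutrophil, classical monocyte, patrolling monocyte and tissue macrophage genes and for attractants and growth factors. Each circle is a gene, filled where it passed the test, and black bars are medians, -0.58 for the neutrophil genes and 0.66 for the tissue macrophage genes at 1wk Dox.

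The genes most alike to each of the 10 over the MΦ samples were found by Pearson correlation of log2 scores over 10 samples. They were *Tmem189* (0.939) and *Vasp* (0.931) for *Chi3l3*, *Sla2* and *Trappc2l* (both 0.983) for *Elane*, *Flt1* (0.917) and *Neil3* (0.915) for *F13a1*, *Asb14* (0.956) and *Rnf11* (0.942) for *S100a9*, and *Dcaf11* (0.920) and *Mrps24* (0.914) for *S100a8*. For *Lcn2* they were *Dnahc7b* (0.984) and *Tada2b* (0.966), for *Mpo* *Rbm8a* (0.963) and *Niacr1* (0.961), for *Ly6c2* *Klra9* (0.923) and *Sap30* (0.899), for *Plac8* *5033411D12Rik* (0.935) and *Pldi* (0.932), and for *Vcan* *Gm5576* (0.881) and *C1qtnf6* (0.860). They were picked as the highest of all genes tested, and the samples share cell type and processing.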

How the data were processed

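The authors amplified RNA of sorted cells with the NuGEN Ovation system, sequenced paired-end reads, aligned them to mm9 with TopHat2 version 2.0 (per the submitters' processing notes) and normalised gene expression by TMM in Avadis NGS. The deposited values are these scores, rounded, from 1 upward. The annotation is not given in the sources used here. Depth per sample is unknown, so the precision of a low score is too. Of 38 value columns, 32 belong to these samples and the other 6 were not used. Nothing says which samples share mice, so p-values measure the spread between these samples.

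The model was limma 3.58.1 (R 4.3.3, trended empirical Bayes) on log2(score + 1), for genes whose mean reached 20 in a fitted group. MΦ and β cell fits took all time points, ECs were fitted at 1wk WD and No Dox, and further fits took all cell types at No Dox and the 1wk WD response of MΦs against ECs. The fit was tested on simulated data. The members and gene lists were chosen with earlier results of these data known. All 10 members are named, other genes as counts, medians and examples, and for each member the 2 genes with the highest Pearson r. Of the lists, *Siglecf* was not matched. Coordinates and sequences came from mm9 and GENCODE M1. Alternatives were pseudocounts of 0.1 and 20, no minimum and a minimum of 200, median-of-ratios and quantile scaling, no trend, only the groups compared, a replicate block, an unadjusted p, each replicate left out, and the 1wk Dox EC sample added. Leaving out both acinar-rich No Dox MΦ libraries, or both such β libraries, was chosen after seeing the data, as was repeating the calls of other genes under these settings. scipy 1.17.1, numpy 2.4.6, pandas 2.3.3, biopython 1.88 and matplotlib 3.10.9 under Python 3.11.15 made the tables and figures.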

Additional observations from a re-analysis of the deposited data

Results flagged for a closer look

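Dixon's test was run on 49 groups of samples, of which chance flags about 5%, and it set 1wk WD EC replicate 4 apart, with *Lcn2* at 31 where the others scored 9 to 11. It also picked 5 values in groups whose other samples were all at the lowest score. There any higher score is picked whatever its size and that rate does not apply, so these are given as values. In No Dox β cells, replicate 4 held *S100a8* at 162, *Lcn2* at 63 and *Mpo* at 7, where each other sample was at 1, and replicate 3 held *Ly6c2* at 10, where each other sample was at 1. In 1wk Dox β cells, replicate 1 held *Mpo* at 6, where the others were at 1. *F13a1* at 1wk WD moved opposite ways in MΦs and β cells relative to the No Dox mean, with every sample of each below or above it: the mean difference was -0.26 in MΦs and 2.37 in β cells on the log2 scale, and the difference between them was not tested. Neither difference passed the test, and the 1wk WD samples overlapped with No Dox in both cell types. How many of all genes show such a pattern was not counted.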

How the results depend on the processing

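Depth is unknown for these scores, so low scores such as those of *Mpo* have unknown precision, and 2 samples at 1wk Dox limit every comparison with that group. Of 1015 alternative values of 55 fold changes, 953 kept direction and call, 14 lost the call, 19 gained it and 29 changed sign. At an unadjusted p, 1 gene passed in each MΦ comparison, in β cells (1wk WD against 1wk Dox) and in the difference of the 1wk WD responses. With a minimum of 200, 1 gene passed at 1wk WD against No Dox in MΦs, and with only the groups compared 1 passed at 1wk WD against 1wk Dox. Samples left out in turn gave 0 to 1 genes at 1wk Dox against No Dox in MΦs, and 0 to 2 genes past 2-fold in the single 1wk Dox EC sample (0 without No Dox replicate 1, 2 without replicate 2), where quantile scaling gave 0. Without both acinar-rich No Dox MΦ libraries, 1 gene passed at 1wk Dox and 5 of 9 tested against β cells, and sign changed for *S100a8* (0.42) and *S100a9* (0.14) at 1wk WD, *Lcn2* (0.95) and *Vcan* (-0.013) at 1wk Dox, and *Elane* against ECs (-0.37) and β cells (-0.20). With each sample left out, sign also varied at 1wk Dox for *S100a8* (-0.16 to 0.40), *Lcn2* (-1.13 to 0.37), *Ly6c2* (-0.044 to 0.16), *Mpo* (-0.10 to 1.44) and *Vcan* (-0.030 to 0.25), at 1wk WD for *S100a8* (-0.43 to 0.12), *S100a9* (-0.29 to 0.060), *Lcn2* (-0.50 to 1.00) and *Ly6c2* (-0.0070 to 0.20), against ECs for *Ly6c2* (-0.20 to 0.032) and *Elane* (-0.10 to 0.37), and against β cells for *Vcan* (-0.27 to 0.72). Without both acinar-rich No Dox β libraries (3 and 4), 2 genes, *Plac8* and *Vcan*, passed at 1wk Dox and 2, the same genes, at 1wk WD in β cells, where over all genes 1199 and 1424 passed against 2 and 0 with all samples. The cause was not tested. With the replicate block, 7 of 10 genes passed against ECs (*Lcn2* as well, which also passed with a pseudocount of 20, quantile scaling or only the groups compared) and 0 at each time point in MΦs. Over all genes, 340 passed at 1wk Dox in MΦs, against 3 with the block, 52 without a trend, 38 with only the groups compared, 0 without 1wk Dox replicate 4, 49 without replicate 5 and 955 without the acinar-rich libraries. At 1wk WD it was 94, against 43, 11, 49 and, without those libraries, 349. Samples that shared a number correlated at -0.137 to 0.0736 between No Dox and 1wk WD MΦs, so the numbers did not pair these time points. Between No Dox MΦs and ECs, the values were 0.233, 0.469, 0.0818 and -0.177 for replicates 1 to 4. The highest values with another number were 0.113, -0.18, 0.212 and 0.209. Replicates 1 and 2 were thus most alike to their own number, and replicates 3 and 4 were not. Whether they share mice was not tested, and the main fit of MΦs against ECs was not paired.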
